A study of Mus musculus with 24 samples.

Results

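The 3' untranslated regions (3' UTRs) of Ets1 and Ikzf3, which encode transcription factors of lymphocytes, carried 22 of the 14634 Argonaute 2 (AGO2) peaks in the authors' deposited table, 18 in Ets1 and 4 in Ikzf3. All rows with these gene symbols were taken, whatever their values. The genes themselves were chosen with earlier results of these data known. AGO2, the protein that holds microRNAs on their target messenger RNAs, had been crosslinked to RNA, immunoprecipitated and its RNA sequenced (HITS-CLIP). CD4+ T cells had been taken from the spleen and the lymph nodes of C57BL/6 mice and cultured for 4 days with 1 µg/mL of antibodies to CD3 and CD28 and with 20 U/mL IL-2. The 12 wild-type and 12 miR-155 knockout libraries differed by labelled genotype, and each is labelled a biological replicate, without saying whether each came from a separate mouse. The sources used here do not give age, sex or how the knockout allele was made. Each genotype has 6 libraries with each of 2 linkers ligated to the 3' end of the RNA. The table pools the libraries of a genotype, so no value below has a replicate error.

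ETS1 is the founding member of the ETS family of transcription factors and is abundant in resting T cells, where it acts with RUNX1 and other factors at T cell genes. IKZF3 (Aiolos) is a zinc finger protein of the Ikaros family, which binds DNA as dimers with its relatives and recruits chromatin complexes in lymphocytes. A microRNA guides AGO2 to a 3' UTR mainly through its seed, bases 2 to 8 from its 5' end, and AGO2 recruits proteins that repress and shorten the life of the bound messenger RNA. miR-155 is induced on activation of lymphocytes, and its targets include many regulators of T cell responses. The comparison of genotypes asks which AGO2 contacts depend on it.

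Each of the genes had 1 peak that matched the miR-155 seed over 7 or 8 nt, and Ets1 had 2 peaks with a match to the miR-221/miR-222 seed. These microRNAs and target sites are shown because the results turn on them. The microRNAs are from RefSeq (GRCm38.p6) with the seed in capitals. The sites are DNA letters of the deposited peak sequences, read along the transcript, with the letters that match in capitals.
mmu-miR-155-5p: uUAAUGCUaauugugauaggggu
Ets1 peak 12, miR-155 8mer: ctgggttttaaAGCATTAAccttcatggtg
Ikzf3 peak 4, miR-155 7mer-A1: cttgatgtgtggGCATTAAgcagacaagtc
mmu-miR-221-3p: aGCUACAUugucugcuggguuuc
mmu-miR-222-3p: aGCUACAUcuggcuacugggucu
Ets1 peak 11, miR-221/miR-222 8mer: tggaaATGTAGCAgcattgctgcattgatg
Ets1 peak 16, miR-221/miR-222 7mer-m8: ggtagcttagagATGTAGCgatgtaagtgt
An 8mer is the complement of bases 2 to 8 followed by A, a 7mer-m8 lacks that A, a 7mer-A1 is the complement of bases 2 to 7 followed by A, and a 6mer is that complement alone.

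The Ets1 3' UTR held 334 scaled reads in wild type against 186 in the knockout, summed over its 18 peaks. The log2 ratio of these sums, wild type over knockout, was 0.84. Among the 302 genes with 10 or more peaks, 14 had a larger ratio than Ets1, and the median was 0.03 (quartiles -0.15 and 0.27). Over all genes and peaks the ratio was -0.01. By its total of 521 reads Ets1 ranked 296th of 4165 genes. AGO2 reads depend both on how much of a transcript is present and on how much of it AGO2 contacts, and these cannot be told apart here.

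The Ikzf3 3' UTR held 54.2 scaled reads in wild type against 41.3 in the knockout over 4 peaks, a log2 ratio of the sums of 0.39. Per kilobase of annotated 3' UTR, the level was 98.5 reads in wild type against 54.9 in the knockout for Ets1, with 5.30 peaks per kilobase. For Ikzf3 it was 25.98 reads in wild type against 19.8 in the knockout, with 1.92 peaks per kilobase. The order of the genes was therefore the same in both genotypes, with Ets1 above Ikzf3.

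No peak of either gene passed an adjusted p of 0.05 (the authors' p, Benjamini-Hochberg adjusted over all peaks). Of all peaks in the table, 0.574% were called lower in the knockout and 0.0273% higher. At an unadjusted p below 0.05 there was 1 Ets1 peak, lower in the knockout, and 0 in Ikzf3, against 2.72% of all peaks that were lower and 1.48% that were higher at that level. Nor did any pass at an adjusted p of 0.1 (0.745% of all peaks did) or 0.01 (0.472%), with a Bonferroni adjustment (0.342%), or among peaks of at least 10 scaled reads (1.04%). The least-read called peak of the table had 17.6 scaled reads in both genotypes together. The adjusted p was 0.742 for Ets1 peak 16 and 1.00 for every other peak of both genes. Fewer reads than this least-read called peak were held by 10 of the 18 Ets1 peaks and 1 of the 4 Ikzf3 peaks. What size of difference could have been called at a given number of reads was not tested.

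The ratio was above 0 in 15 of 18 Ets1 peaks and 3 of 4 Ikzf3 peaks, against 56.4% of all peaks. The median log2 ratio over the peaks was 1.28 in Ets1 and 0.47 in Ikzf3, beside 0.20 over all peaks of the authors' deposited table. Leaving out peaks listed at 0 in the knockout brought it to 0.59 over 12 Ets1 peaks and 0.13 over 3 Ikzf3 peaks. The knockout was listed at 0 for 6 of 18 Ets1 peaks and 1 of 4 Ikzf3 peaks, against 16.6% of all peaks. Wild type was listed at 0 for none, against 7.87% of all peaks. The 6 Ets1 peaks at 0 in the knockout had 2.93 to 8.56 reads in wild type, and shares among peaks of like reads were not compared. Among the 302 genes with 10 or more peaks, 20, with Ets1 counted, had a share at 0 in the knockout at least that of Ets1.

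**Figure D1:**
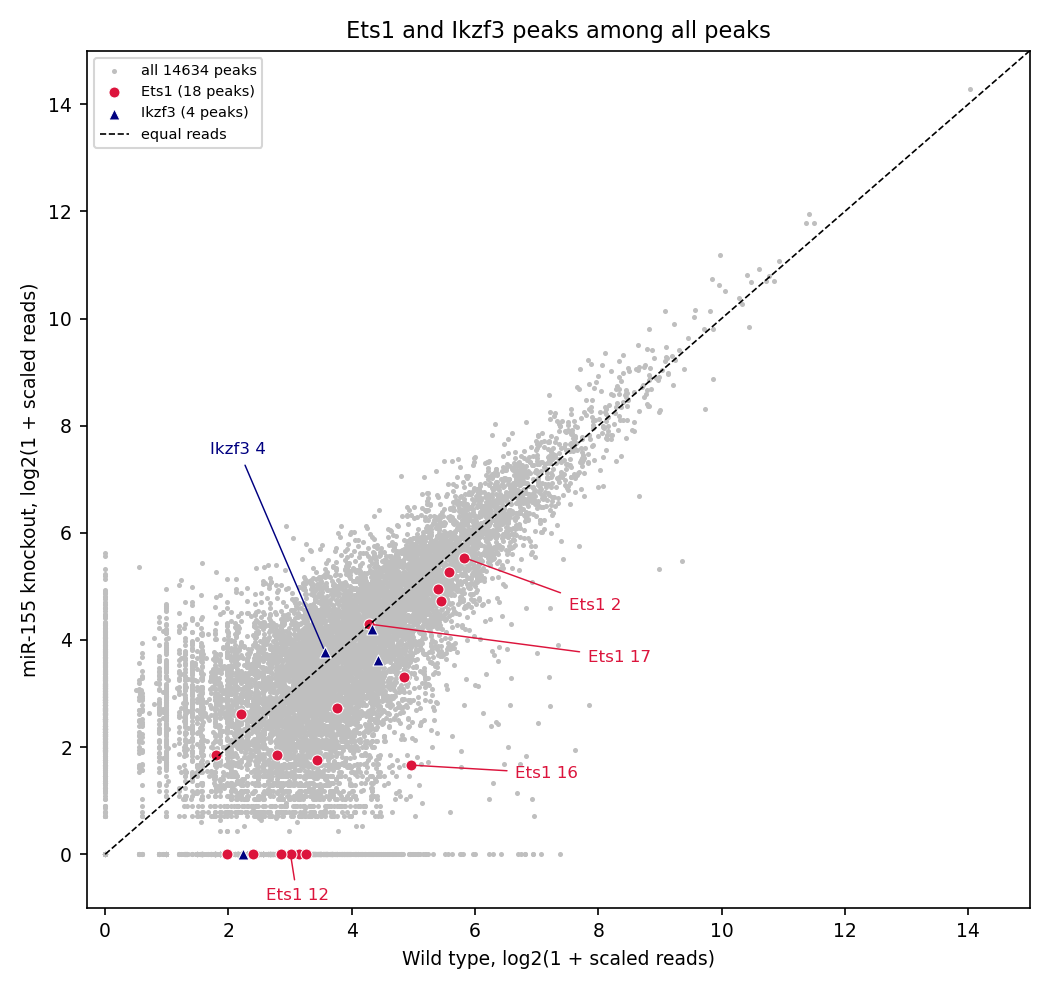
Pooled reads of each peak in wild type (x axis) and miR-155 knockout (y axis), both as log2(1 + scaled reads), with all 14634 peaks in grey, the 18 Ets1 peaks as red circles and the 4 Ikzf3 peaks as blue triangles. Of the Ets1 peaks 15 lie below the dashed line of equal reads, 6 of them at 0 in the knockout, and Ikzf3 peak 4 lies just above it.

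The peaks of Ets1 lay in the last exon, exon 8 of 8 of the longest Ets1 transcript in GENCODE M21, between nt 509 and 3389 of a 3' UTR of 3395 nt. On GRCm38 that 3' UTR is chromosome 9, 32754426 to 32757820, on the plus strand. Joining peaks less than 100 nt apart gives 6 groups. The first, peaks 1 to 3 (nt 509 to 686), held 87.8 reads in wild type against 54.3 in the knockout. Peaks 5 to 10 (nt 1832 to 2289) held 112 in wild type against 77.5 in the knockout. Peaks 15 to 18, which end 6 nt before the annotated 3' end, held 104 in wild type against 51.9 in the knockout. These 3 groups carried 27.3%, 36.4% and 29.9% of the reads of Ets1, and each had more reads in wild type.

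**Figure D2:**
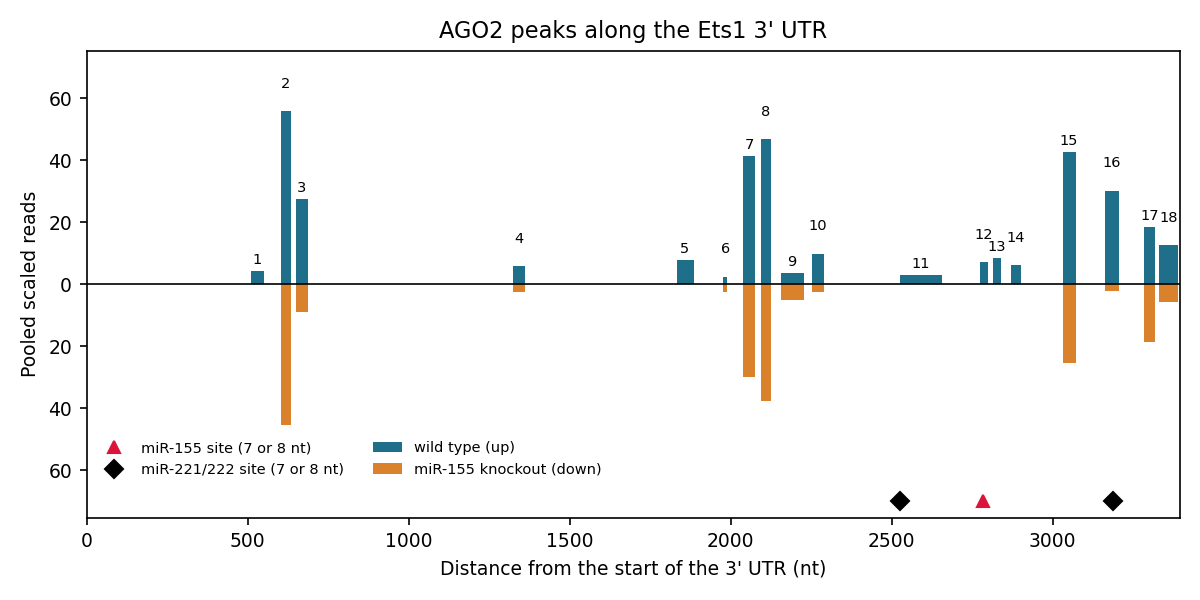
AGO2 peaks of Ets1 along its 3' UTR, with distance from the first nucleotide in nt on the x axis and pooled scaled reads on the y axis, wild type upwards and knockout downwards; numbers are peak numbers and symbols mark seed matches of 7 or 8 nt. Peaks 11 to 14 have bars only on the wild-type side, and at peak 16 the wild-type bar reaches 30.2 reads and the knockout bar 2.17.

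Of the 5 most-read Ets1 peaks, 4 had at most 1.38 times as many reads in wild type as in the knockout. Peak 2 (nt 603 to 634) had 55.8 scaled reads in wild type against 45.4 in the knockout (p = 0.794 in the authors' deposited table). Fewer reads than this were held by 90.6% of all peaks. It contained a 7mer-m8 for miR-200b, whose last base lies in the 6 nt that the deposited sequence adds beyond the peak, and a 6mer for miR-21. Peak 8 (nt 2093 to 2124) had 46.8 reads in wild type against 37.5 in the knockout (p = 0.519 in the authors' deposited table), and none of the families searched matched it. Peak 7 (nt 2040 to 2074) had 41.3 and 29.9 reads in wild type and knockout (p = 0.586 in the authors' deposited table), with a 7mer-A1 for miR-148. Peak 17 (nt 3285 to 3316) was the most even of the well-read peaks, with 18.5 reads in wild type against 18.7 in the knockout (p = 0.897 in the authors' deposited table). Together peaks 2, 7, 8 and 17 made up 56.4% of the reads of Ets1, and the log2 ratio of their sums was 0.30. This grouping was made after the values were seen.

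Much of the difference in Ets1 reads came from 3 other peaks, again picked after their values were seen. Peak 16 (nt 3163 to 3204) had 30.2 reads in wild type against 2.17 in the knockout. Peak 3 (nt 650 to 686) had 27.7 and 8.89 reads, with p = 0.0817 in the authors' deposited table. Peak 15 (nt 3031 to 3071) had 42.8 and 25.4 reads, with p = 0.161. Peaks 3, 15 and 16 accounted for 43.3% of the 148.03 reads by which wild type exceeded the knockout. The other 15 peaks had a log2 ratio of the sums of 0.64.

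Peak 16 had the smallest p of any Ets1 peak, 0.0157 in the authors' deposited table (adjusted p = 0.742), where its log2 ratio was 3.30. That ratio adds 1 to the reads of each genotype, so it cannot be ranked against those of the 6 Ets1 peaks listed at 0 in the knockout. It lies on chromosome 9, 32757588 to 32757629. It held the 7mer-m8 for miR-221/miR-222 printed above, at nt 3187 to 3193, and neither a 6mer nor any longer match to the miR-155 seed. miR-221 and miR-222 are encoded side by side, and share their seed.

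Peaks with a miR-221/miR-222 match were compared with it across the table. Such a match over 7 or 8 nt was present in 136 peaks (0.929%), and 4 of these were called lower in the knockout. All 4 also held a match of 6 nt or more to miR-155, and the letters TGTAGCA of a miR-221/miR-222 7mer-A1 can run into AGCATTA of a miR-155 site. Of the 126 peaks without a miR-155 match 0 were called lower. Of them 55 reached 17.6 scaled reads, and their median log2 ratio was -0.06. On that scale, with 1 added to the reads, the ratio of Ets1 peak 16 was the highest of these 55, and 5 of them had an unadjusted p below 0.05, 2 of which were lower in the knockout. Whether the miR-221/miR-222 match has a part in the difference at peak 16 was not tested.

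The miR-155 site of Ets1 was an 8mer, the longest class, in a peak with few reads. Peak 12 (nt 2776 to 2797; chromosome 9, 32757201 to 32757222) had 7.04 scaled reads in wild type, and the knockout was listed at 0. Its p in the authors' deposited table was 0.0955, with an adjusted p of 1.00. The site lies at nt 2783 to 2790, exactly at the centre of the peak. Over the 265 peaks of the table with a 7-nt or 8-nt miR-155 match the site centre lay a median of 5.5 nt from the centre of the sequence, and within 5 nt in 48.7%. Of the 30 8mer peaks with fewer than 17.6 scaled reads, 26 were listed at 0 in the knockout and none was called. Ets1 peak 12 is 1 of these 26.

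The peaks around this 8mer had no knockout reads either. Peak 11 (nt 2526 to 2655) had 2.93 reads in wild type, peak 13 (nt 2815 to 2839) had 8.56 and peak 14 (nt 2871 to 2900) had 6.26, and all were listed at 0 in the knockout. Peaks 13 and 14 start 17 and 31 nt after the end of the peak before them. Together peaks 11 to 14 held 24.8 reads in wild type against 0 in the knockout, which is 16.7% of the difference between the genotypes in Ets1. Of the 6298 stretches of 4 consecutive peaks in the table, 9 (0.143%) were listed at 0 in the knockout throughout, in 6 genes. This stretch was picked after its values were seen, and each of its peaks has fewer reads than the least-read called peak of the table.

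Peak 11 was also the widest peak of Ets1, 130 nt, and held more family matches than any other. At its start was the miR-221/miR-222 8mer, of which the first base lies outside the peak, then a 7mer-A1 for miR-103 and an 8mer for miR-326. It also held AGCATTG, which differs from the miR-155 match AGCATTA by A7G, counting from 1 at the 5' end of the 7mer. A match with 1 such difference was found in 8.45% of all peaks. In Ets1 it also occurred in peak 15, as C3A. The first 6 letters of AGCATTG are the complement of the miR-155 seed without base 2, called an offset 6mer. AGCATT was found in 2.59% of all peaks, and in Ets1 peaks 11 and 12 but no Ikzf3 peak.

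The remaining Ets1 peaks were small. Outside the peaks already described, peaks 1, 4, 5, 6, 9, 10 and 18 had 2.46 to 12.5 reads in wild type and 0 to 5.60 in the knockout. Peaks 1 and 5 had 4.28 and 7.87 reads in wild type and were listed at 0 in the knockout. Peak 10 had 9.88 reads in wild type against 2.37 in the knockout, and peak 18 had 12.5 and 5.60 with a miR-101 7mer-A1 at its edge. Peak 4 had 5.88 and 2.60 reads and a 7mer-m8 for miR-29. Peaks 6 and 9 had slightly more reads in the knockout, 2.60 against 2.46 and 5.149 against 3.596. Peak 6, the narrowest at 13 nt, held an 8mer for miR-125 that runs past its end. Peak 14 held a 7mer-A1 for miR-9.

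At the miR-155 site of Ikzf3, slightly more AGO2 reads were listed without miR-155 than with it. Peak 4 (nt 1595 to 1641) had 10.9 scaled reads in wild type against 12.7 in the knockout. Its log2 ratio in the authors' deposited table was -0.21, with p = 0.571 and an adjusted p of 1.00. The peak lies on chromosome 11, 98465345 to 98465391, on the minus strand, in exon 8 of 8 of the longest Ikzf3 transcript. Its site is a 7mer-A1 at nt 1618 to 1624. The 7 letters that start at nt 1617 differ from the miR-155 match AGCATTA by A1G, at the letter opposite base 8 of miR-155. The site centre lies 3 nt from the centre of the peak sequence.

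Most peaks with such a site had more reads in wild type. In 59 peaks with a 7mer-A1 and no fewer than 17.6 scaled reads, the median log2 ratio was 2.58, and 21 were called lower. Ikzf3 peak 4 was among 8 of these 59 with a ratio at or below 0. None of the 67 8mer peaks had a ratio at or below 0. The ratios of Ets1 peak 12 and Ikzf3 peak 4 were 3.01 and -0.21 in the authors' deposited table, and the difference between them was not tested, since pooled values give no error.

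**Figure D3:**
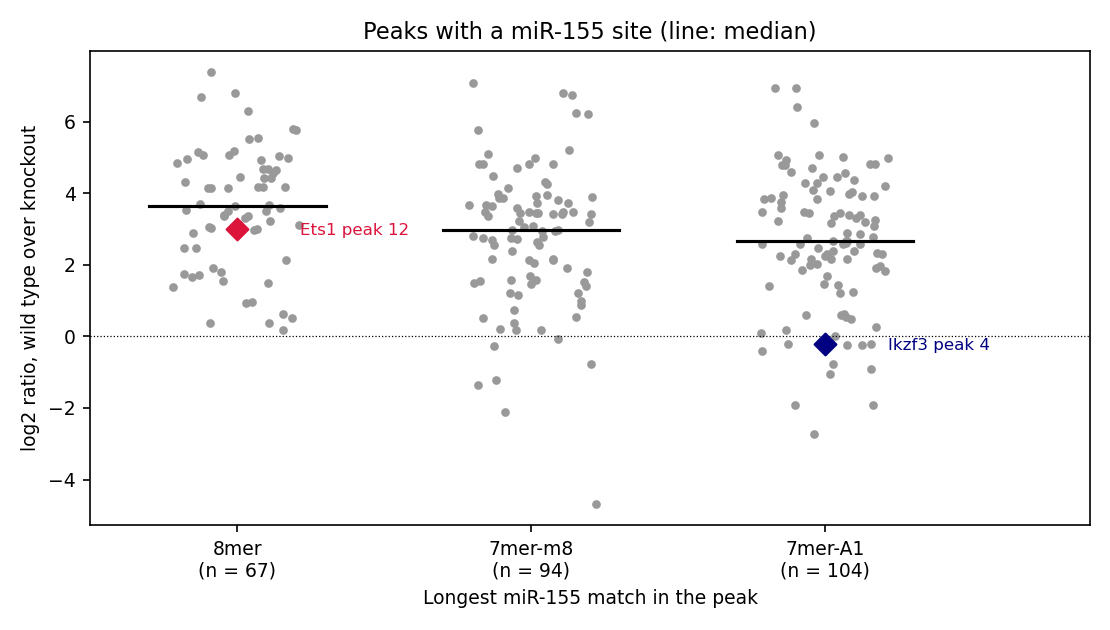
Log2 ratio of wild type over knockout (y axis) for each peak with a miR-155 match, by the longest match it holds (x axis; 67 8mer, 94 7mer-m8 and 104 7mer-A1 peaks), with the median of each class as a line and the members as diamonds. Ets1 peak 12 lies at 3.01, a little below the 8mer median of 3.66, and Ikzf3 peak 4 lies at -0.21, far below the 7mer-A1 median of 2.67.

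The other Ikzf3 peaks were spread over a 3' UTR of 2084 nt (chromosome 11, 98464902 to 98466985). Peak 1, at nt 11 to 62 just after the stop codon, had 20.4 scaled reads in wild type against 11.3 in the knockout (p = 0.9502 in the authors' deposited table). It held AGCCTTA, which differs from the miR-155 match by A4C. Peak 3 (nt 1456 to 1494) was the most read, with 19.1 and 17.4 reads in wild type and knockout and p = 0.914. It held no seed match of the families searched. Peak 2 (nt 983 to 1018) had 3.71 reads in wild type, and the knockout was listed at 0 (p = 0.440). It contained a match to miR-15/miR-16, a family that restrains the cell cycle.
mmu-miR-16-5p: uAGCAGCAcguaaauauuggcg
Ikzf3 peak 2, miR-15/miR-16 7mer-m8: ggagccaaaatgTGCTGCTtagttccccac
Peaks with a 7-nt or 8-nt miR-15/miR-16 match made up 4.58% of the table, with a median log2 ratio of 0.04.

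**Figure D4:**
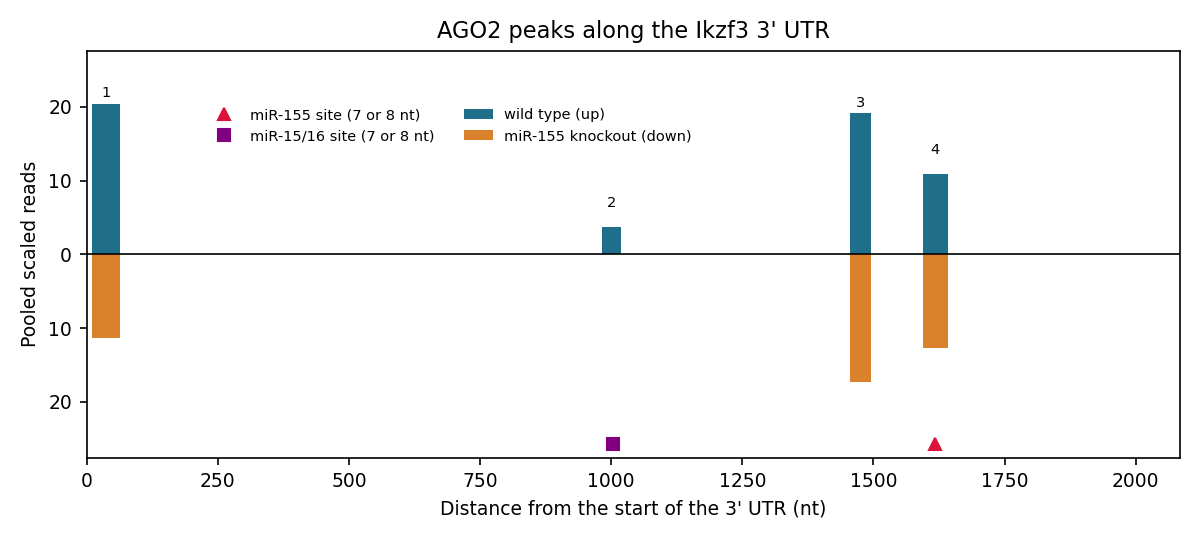
AGO2 peaks of Ikzf3 along its 3' UTR, with distance from the first nucleotide in nt on the x axis and pooled scaled reads on the y axis, wild type upwards and knockout downwards; numbers are peak numbers and symbols mark seed matches of 7 or 8 nt. At peak 4, over the miR-155 match, the knockout bar (12.7) is slightly longer than the wild-type bar (10.9), and peak 2 has no knockout bar.

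Of 33 microRNA families searched, 10 had a 7-nt or 8-nt match in at least 1 Ets1 peak and 2 in Ikzf3. Such a match lay in 9 of 18 Ets1 peaks and 2 of 4 Ikzf3 peaks, against 45.5% of all peaks. Only the miR-221/miR-222 family matched more than 1 peak of the same gene. The miR-17, miR-19, miR-25, let-7, miR-30, miR-142, miR-181, miR-27 and miR-146 families had no match of this length in either gene. miR-150 was not analysed here. No peak of either gene held the Pumilio element TGTANATA or the poly(A) signal AATAAA, present in 3.70% and 9.57% of all peaks. The AU-rich pentamer ATTTA occurred in Ets1 peak 6 only, and in 11.6% of all peaks. The peaks had a median GC content of 41.1% in Ets1 and 40.5% in Ikzf3, against 36.8% over all peaks.

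In the ETS family 10 of 26 genes had peaks, 66 in all, and none was called in either direction (6 had an unadjusted p below 0.05). The median log2 ratio of the 66 peaks was 0.56, and they include the 18 peaks of Ets1, with a median of 1.28. Their reads summed to 1939 in wild type against 1819 in the knockout, again with Ets1 counted. Elf2 had the most reads, 541 in wild type against 590 in the knockout over 11 peaks. Its peak 6 was listed at 0 in wild type with 34.4 reads in the knockout (p = 0.000572 in the authors' deposited table, adjusted p = 0.0805). Etv3 had 29.1 reads in wild type over 2 peaks and Fli1 11.8 over 1, and both were listed at 0 in the knockout. Elf1 had 119 reads in wild type against 211 in the knockout. The sums of Ets1 and Elf1 thus pointed in opposite directions, with log2 ratios of 0.84 and -0.82.

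In the Ikaros family 4 of 5 genes had peaks, 40 in all with the 4 of Ikzf3 counted, and a median log2 ratio of 0.10. None was called and 0 had an unadjusted p below 0.05. Ikzf1 (Ikaros) had the most reads, 827 in wild type against 915 in the knockout over 28 peaks, and Ikzf4 (Eos) had 184 and 187 over 7. Ikzf5 had 7.24 and 9.03 reads in 1 peak. Ikzf3 was the only member of this family with a 7-nt or 8-nt miR-155 match in a peak, and the only one whose summed reads were higher in wild type. The peak with that match, peak 4, had slightly more reads in the knockout (12.7 against 10.9 in wild type). Ikzf3 peaks 1, 2 and 3, without such a match, had more reads in wild type.

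**Figure D5:**
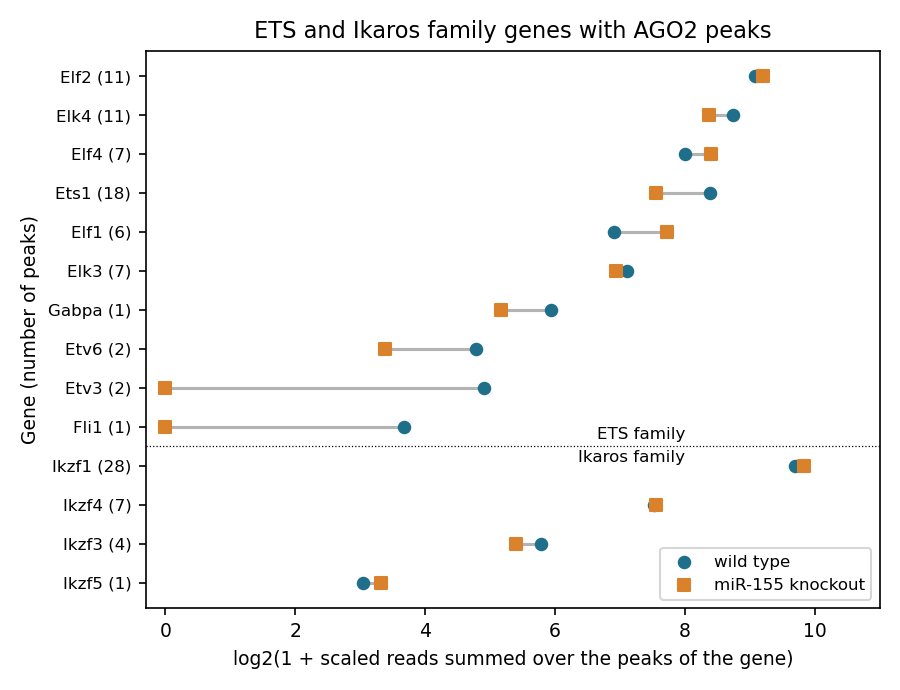
Summed reads per gene, as log2(1 + scaled reads) on the x axis, for the ETS (top) and Ikaros (bottom) family genes with peaks (y axis; number of peaks in brackets), with wild type as circles and knockout as squares joined by a line. Ets1 has the wild-type circle to the right (334 reads against 186) and Elf1 the knockout square (211 against 119), while Ikzf1 and Ikzf4 nearly coincide.

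Among 33 other lymphoid transcription factors 27 had peaks, and 1 of their 184 peaks was called lower in the knockout and 0 higher (median log2 ratio 0.10). The shares over all peaks were 0.574% lower and 0.0273% higher. The called peak was in Tcf4, an E protein gene, with 27.04 reads in wild type against 0 in the knockout (p = 8.23e-06 in the authors' deposited table, adjusted p = 0.00208). This Tcf4 peak held a 7mer-m8 for miR-155. Cbfb, which encodes the partner of RUNX proteins, had 96.4 reads in wild type against 29.2 in the knockout, with 7 of 10 peaks listed at 0 in the knockout. It was also among the 6 genes with 4 consecutive peaks at 0. Rbpj, the DNA-binding partner of Notch, and Klf13 followed by p, with adjusted p of 0.256 and 0.377, in opposite directions. Rbpj peak 1 was higher in the knockout (13.6 reads against 0), and Klf13 peak 6 was lower there (0 against 13.4). The summed reads were higher in the knockout for Rbpj (140.7 against 75.1) and for Klf13 (273.5 against 202.9). Of 31 genes for partners and modifiers of ETS1 and Aiolos, 15 had peaks, 38 in all, with none called, a median of 0.07 and 2 at an unadjusted p below 0.05. These were Stat5b, a transcription factor of IL-2 signalling (29.6 in wild type against 55.6 in the knockout at peak 1, adjusted p = 0.0953), and the kinase gene Mapk3 (2.93 and 12.01).

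The genes whose pair of summed reads was nearest to that of Ets1, among genes with 10 or more peaks, were the ubiquitin ligase gene Fbxo11 (342 in wild type against 200.5 in the knockout), the condensin gene Smc4 (309 and 186) and the Roquin-2 gene Rc3h2 (384 and 193). Their distances on the log2(1 + reads) scale were 0.11, 0.11 and 0.21, over 2 pooled values. The likeness is of the sums only. Rc3h2 peak 1, with a miR-155 7mer-m8, was called lower in the knockout (123 reads in wild type against 0.634, adjusted p = 1.79e-07 from the authors' p). In Fbxo11 the peaks with a miR-155 site were peak 3 (28.7 and 5.74 reads) and peak 14 (22.6 and 26.8), and neither was called. Ikzf3, with 4 peaks, does not itself meet the limit of 10 peaks. Among the genes that do, the nearest to it was St8sia4 (62.2 and 56.6; distance 0.49), and genes with fewer peaks were not ranked.

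Over the whole table, wild type summed to 371088 scaled reads and the knockout to 374126, and a peak held a median of 17.05 in both together. Counting intervals are not given, since the depth of each library is unknown. Of 12 T cell marker genes 8 had peaks, 95 in all, with 7366 reads in wild type against 9325 in the knockout. The sums were higher in the knockout for 6 of the 8, among them Il2ra (1934 in wild type against 3293) and Cd28 (1639 and 2111), and higher in wild type for Icos (345 and 305) and Cd4 (75.9 and 63.3). Of these peaks 2 were called, both lower in the knockout, against 0.574% of all peaks called lower. They were in Cd69 (42.1 and 18.3 reads at peak 10, adjusted p = 0.0267) and Icos (64.8 and 7.77 at peak 4, adjusted p = 0.0277, both from the authors' p). The part of these differences in the values of Ets1 and Ikzf3 was not tested. Of 8 B cell markers 1 had a peak, Cd22 (10.5 and 1.83 reads). None of 16 markers of myeloid cells, CD8 and NK cells, erythroid cells and platelets had one. Among the first 6 replicate numbers wild-type libraries carried linker 2 and knockout libraries linker 1, and among the last 6 the reverse, so within each set linker and genotype cannot be told apart.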

How the data were processed

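One table of AGO2 peaks was used. Per the file headers, it gives reads per genotype and their ratio as deposited log2 values, and a deposited p-value of differential binding for each peak. Bowtie 0.12.7 and mm9 are named in the submitters' processing notes. Not given in the sources used here: how peaks were called, how reads were scaled, whether duplicates were collapsed, and which test produced the p-values. Both genotype columns were taken to be log2(1 + scaled reads) of pooled libraries, and this was reversed to obtain reads. The planned test per library could not be made from pooled values, so Benjamini-Hochberg adjustment was applied to the authors' p-values over the 14634 peaks (threshold 0.05). Of these p-values 9.03% exceed 0.95, and the spread between libraries behind them is unknown.

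All 22 peak sequences matched GENCODE M21 transcripts exactly, and coordinates are those of GRCm38 (the authors' mm9 differs); positions in the 3' UTR equal the deposited ones. The deposited sequence adds 6 nt on each side of these peaks. Seeds came from RefSeq mature microRNAs (GRCm38.p6), and a peak was counted in its longest class. Only the transcript strand was searched. The adjustment and the site search were tested on simulated data. Per gene, the 6 most-read peaks, the 3 with the smallest p and all miR-155 site peaks were to be given in full. Context genes are those with the smallest p, at most 4 per list, and a few chosen after their values were seen (Elf1, Elf4, Elk4, Cd4, Cd22). Members and lists were chosen with earlier results of these data known. Alternatives were other thresholds, a minimum of 10 scaled reads, no pseudocount, centring, other site classes and the sequence without flanks. Added after seeing the data were sums without the peak of smallest p and values without the peaks listed at 0 in the knockout. Python 3.11.15, NumPy 2.4.6, pandas 2.3.3 and Matplotlib 3.10.9 were used.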

Additional observations from a re-analysis of the deposited data

How the results depend on the processing

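No peak of either gene passed at adjusted p thresholds of 0.01 or 0.1, with a Bonferroni adjustment, or among peaks of at least 10 scaled reads, where the smallest adjusted p was 0.515. All ratios below kept their direction. For Ets1 the log2 ratio of the summed reads, 0.84, was 0.70 over peaks of at least 10 scaled reads, 0.98 without the most-read peak, 0.86 centred on all reads, 0.72 without the peak of smallest p and 0.67 over peaks with reads in both genotypes. For Ikzf3, 0.39 became 0.29, 0.55, 0.40, 0.29 and 0.29 in the same order. The median log2 ratio of the Ets1 peaks, 1.28, was 0.73 over peaks of at least 10 scaled reads, 1.09 centred on the median of all peaks, and 0.59 over peaks with reads in both genotypes, or 0.61 there with no pseudocount. For Ikzf3, 0.47 became 0.13, 0.27, 0.13 and 0.14. Family matches lay in 9 Ets1 peaks and in 6 with 8mer and 7mer-m8 only or without flanks. In Ikzf3 they lay in 2 peaks and in 1 with 8mer and 7mer-m8 only, where the miR-155 7mer-A1 drops out. No paired analysis was possible because the table pools the libraries of each genotype and carries no replicate numbers; for the same reason the planned fits with a replicate block or a linker term were not run. The depth of single libraries is unknown.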

Other observations

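The p-values of the authors' deposited table did not follow the pooled reads alone. Ets1 peaks 5, 12, 13 and 14 were all listed at 0 in the knockout, with 7.87, 7.04, 8.56 and 6.26 scaled reads in wild type. Their p-values were 0.654, 0.0955, 0.123 and 0.169 in the authors' deposited table, so peak 5, with the second most reads of the 4, had the largest p. Ikzf3 peak 1 had 20.4 reads in wild type against 11.3 in the knockout and p = 0.9502, while Ets1 peak 15 had 42.8 and 25.4 and p = 0.161. Which libraries the reads of each peak came from is not shown by pooled values.

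A count of miR-221/miR-222 peaks includes miR-155 sites. Of the 136 peaks with a 7-nt or 8-nt miR-221/miR-222 match 10 also held a miR-155 match of 6 nt or more. With these the median log2 ratio was 0.23, and over the other 126 it was 0.16.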
